A study of Mus musculus with 3 samples.

Results

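The cells described here are 405 fibroblasts of mouse skin that carried RNA of at least 2 of the genes Col11a1, Lrrc15, Tnmd and Acan. These genes are seen together in the dermal sheath of the hair follicle. The cells were 405 of 6498 fibroblasts, and of 23292 barcodes kept in all, in the control and metformin libraries. A kept barcode had at least 800 unique molecular identifiers (UMIs, the counted RNA molecules), at least 300 genes and at most 20% mitochondrial UMIs. A kept barcode was gated as a fibroblast where Col1a1, Col1a2, Col3a1 and Dcn together had at least 20 UMIs, Krt5 and Krt14 together had under 30, and Ptprc had 0. Of these fibroblasts, those with a UMI of at least 2 of the 4 genes Col11a1, Lrrc15, Tnmd and Acan (set F) were taken, as long as set F had more detected genes than each of 6 other sets of 4 fibroblast genes (sets A to E, and set G of the dermal papilla).

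Skin of C57BL/6 mice aged 7 weeks was measured by droplet single-cell RNA sequencing, with 1 library for each agent. The control library was labelled with the agent control and the metformin library with the agent metformin, an oral drug for diabetes. Both groups shared the strain, the age and the tissue, and neither the number of mice behind a library nor the dose, route and duration of the agent is given in the sources used here. The library of the agent Shi-Bi-Man was not analysed here. With 1 library for each agent, the agent, the mouse and the library cannot be told apart, no test between agents was made, and every interval given is an exact 95% interval that covers counting error only.

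The dermal sheath is a cup and sleeve of mesenchymal cells around the lower hair follicle, continuous with the dermal papilla at its base. Its cells lie on the outer side of a thick basement membrane, make fibrillar collagen and carry the contractile proteins of smooth muscle, and contraction of the sheath helps to move the papilla upwards when a follicle regresses. Col11a1 encodes a chain of collagen XI, Lrrc15 a membrane protein of matrix-rich fibroblasts, Tnmd the membrane protein tenomodulin best known from tendon, and Acan the large proteoglycan aggrecan best known from cartilage.

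The libraries differed in depth. The control library had 12108 barcodes with a median of 3939 UMIs, and the metformin library 12092 barcodes with a median of 6540 UMIs. Gated fibroblasts made up 4250 of 11554 kept control barcodes and 2248 of 11738 kept metformin barcodes. The libraries had 41 barcode sequences in common, which belonged to 0 control and 1 metformin dermal sheath-like cell. The dermal sheath-like cells were deeper than the other gated fibroblasts in both libraries, with a median of 4852.5 against 2831 UMIs in control and of 6495 against 3750 UMIs in metformin. Depth bears on every share of cells with a UMI, so some of these shares are also given after each cell was thinned to 1500 UMIs. Thinning left out 1 control and 7 metformin dermal sheath-like cells. Shares and numbers of cells given only without thinning still carry the difference in depth.

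Dermal sheath-like cells numbered 64 in the control library and 341 in the metformin library. They were 1.51% of the gated control fibroblasts, with an interval of 1.16% to 1.92%, and 15.2% of the gated metformin fibroblasts, with an interval of 13.7% to 16.7%. The difference was 13.7 points, with an interval of 12.1 to 15.2 points. Among all kept barcodes the shares were 0.554% in control and 2.90% in metformin. The share was higher in the metformin library on both denominators, and how cells were taken from the tissue into each library was not tested as a source of the difference.

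The metformin share stayed above the control share under each of the 6 other ways of choosing the cells. With every barcode thinned to 1500 UMIs before the rule was applied, 26 of 3266 control fibroblasts (0.796%) and 263 of 1721 metformin fibroblasts (15.3%) qualified. When any fibroblast with at least 2 set F genes was taken whatever its other genes, the shares were 4.49% in control and 24.3% in metformin, which was the widest gap in points, at 19.8, but the smallest ratio, at 5.404, against 10.1 for the rule as used. Among the other classes, set A fibroblasts, defined by Pi16, Dpep1, Tnfaip6 and Cpxm1, made up 48.3% of the gated control and 30.2% of the gated metformin fibroblasts. The dermal papilla set G (Crabp1, Notum, Rspo3 and Corin) held 10 control cells (0.235%) and 42 metformin cells (1.87%).

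**Figure D1:**
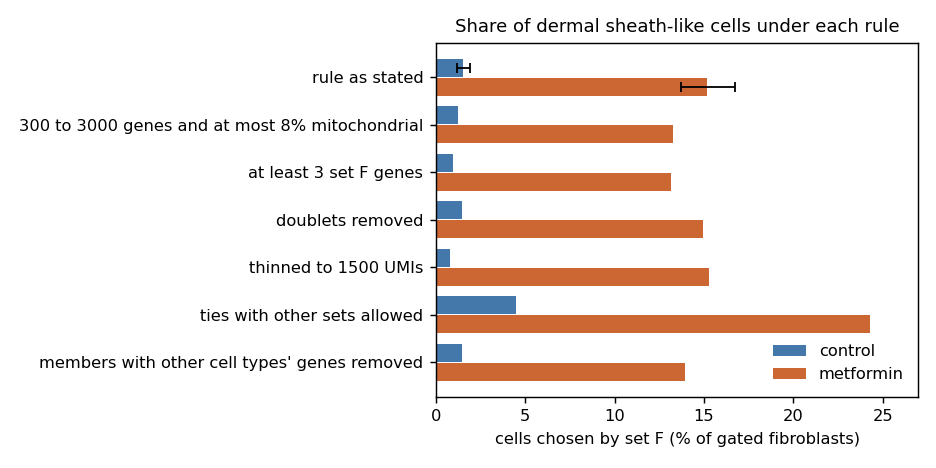
Share of dermal sheath-like cells (set F cells) among gated fibroblasts, in percent, in the control library (blue) and the metformin library (orange) under the stated rule and 6 other choices. Bars start at 0, and the lines on the top pair are exact 95% binomial intervals for counting error; the metformin bar lies between 13.2% and 24.3% and the control bar between 0.796% and 4.49%.

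The rule itself fixed that set F genes were detected in these cells, so their levels are a description. All 4 genes were detected in 11 of 64 control cells (17.2%) and in 155 of 341 metformin cells (45.5%). The most frequent combination in control was Col11a1, Lrrc15 and Tnmd without Acan, in 18 cells, and in metformin it was all 4 genes. Depth moved with the number of genes found: metformin cells with 2, 3 and 4 set F genes had medians of 4280, 5394 and 8620 UMIs. The summed level of Col11a1 was 415 UMIs per 1000000 UMIs of the class (CPM) in control and 1008 CPM in metformin, and the level of Lrrc15 was 467 and 861 CPM. Tnmd stood at 251 and 667 CPM, and Acan at 164 and 222 CPM. All 4 levels were higher in the metformin cells.

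Each set F gene was then left out of the rule in turn, and its detection was read in the cells chosen by the other 3. Of cells chosen without Acan, 16 of 54 control cells (29.6%, interval 17.98% to 43.6%) and 143 of 281 metformin cells (50.9%, interval 44.9% to 56.9%) had an Acan UMI. Among the remaining gated fibroblasts the Acan shares were 0.453% and 4.12%. Of cells chosen without Col11a1, 74.2% in control and 92.9% in metformin had a Col11a1 UMI, against 3.51% and 16.2% of the remaining fibroblasts. Lrrc15 was found in 79.3% and 93.3% of the cells chosen without it, against 6.75% and 19.4%. Tnmd was found in 45.5% and 71.6%, against 11.6% and 22.2%. After thinning the same order held for each gene in both libraries, with Acan in 12.0% against 0.154% in control and in 25% against 2.02% in metformin. Each gene was thus found more often in cells chosen by the other 3 genes than in the remaining fibroblasts. Most control cells chosen without Acan or without Tnmd nevertheless lacked that gene. Since set F was chosen with earlier results of these data known, these shares are a description.

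For genes that the rule had not used, the order of cells just inside and just outside it depended on the inside cells taken. The 23 control and 45 metformin cells with exactly 2 set F genes had 26.1 and 43.6 CPM of Ednrb, the endothelin receptor type B, and 1294 and 650 CPM of Acta2, the smooth muscle actin. Just outside stood 127 control and 205 metformin fibroblasts with at least 2 set F genes in which another set was as high, most often set A, in 109 and 169 of them. These had 9.18 and 124 CPM of Ednrb and 283 and 774 CPM of Acta2. Against them, cells with exactly 2 set F genes had more of both genes in control and less in metformin. The control Ednrb value of those cells rested on 3 UMIs in 1 cell. The 37 control and 158 metformin cells in which set F was 1 gene above the next set had 43.05 and 389 CPM of Ednrb. Their Acta2 levels were 765 and 1858 CPM, so both genes were higher in these inside cells in both libraries. In cells with exactly 2 set F genes Stmn2 was at 95.5 CPM, against 96.4 CPM outside, in control, and at 432 against 180 CPM in metformin. The 577 control and 327 metformin fibroblasts with exactly 1 set F gene had 2.13 and 1.56 CPM of Ednrb.

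Tnmd and Col11a1 were also frequent in set C fibroblasts, chosen by Coch, Dkk2, Fmod and Kera. Tnmd had a UMI in 50.8% of set C cells in control and 67.7% in metformin, and stood there at 687 and 1094 CPM, above its level in the dermal sheath-like cells. Col11a1 had a UMI in 33.85% of set C cells in control and 50% in metformin. Set C cells had no UMI of Ednrb in either library, and Acan was found in 1.54% and 0% of them. Tnmd and Col11a1 taken one by one thus did not separate these classes, whereas Acan, also a set F gene, and Ednrb were seldom or never found in set C.

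**Figure D2:**
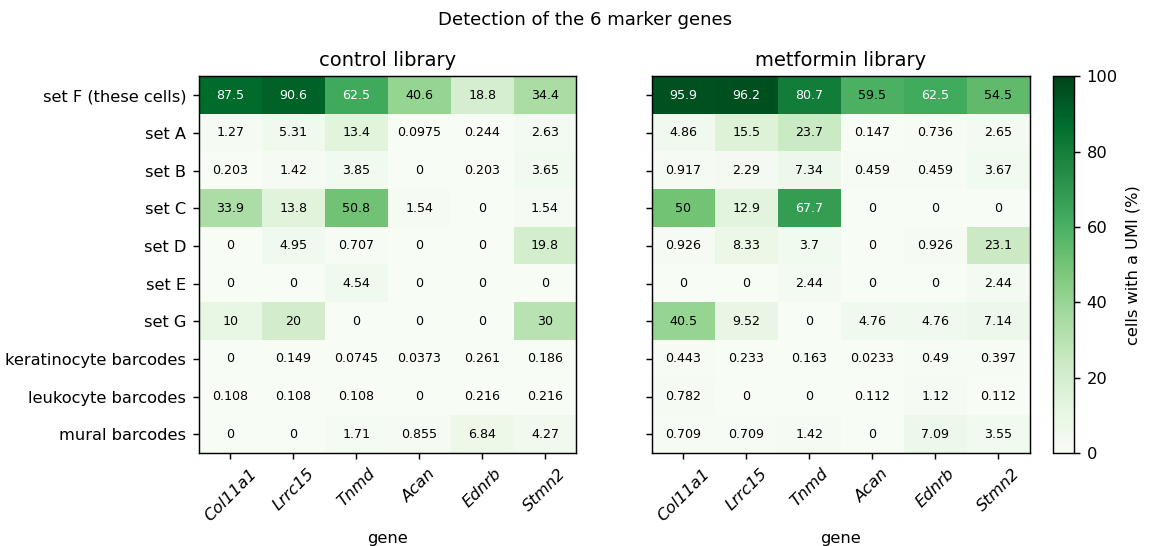
Percent of cells with at least 1 UMI of each of the 6 marker genes (columns) in each class of barcode (rows), for the control library on the left and the metformin library on the right; darker green is a higher share and every share is printed. The first 4 genes chose the set F cells, whereas Ednrb, in 18.8% and 62.5% of those cells, and Stmn2 did not.

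Ednrb and Stmn2, the markers that the rule did not use, were both higher in the dermal sheath-like cells than in the other gated fibroblasts. Ednrb (chromosome 14, 103814625 to 103844402, minus strand, GRCm38) had a UMI in 18.8% of the control cells (interval 10.1% to 30.5%) and 62.5% of the metformin cells (interval 57.1% to 67.6%). It had a UMI in 0.334% and 1.78% of the other gated fibroblasts, and in 0.261% and 0.490% of keratinocyte barcodes, a cell type that should lack it and whose median depth was 9099 and 8575.5 UMIs. After thinning, 6.35% of control and 37.1% of metformin dermal sheath-like cells kept an Ednrb UMI, against 0.137% and 0.867% of the other fibroblasts. Its summed level was 119 CPM against 1.44 CPM in control, a ratio of 83.0 with an interval of 48.3 to 148. In metformin it was 585 CPM against 19.1 CPM, a ratio of 30.6 with an interval of 26.3 to 35.7. Mural barcodes (smooth muscle and pericytes) had an Ednrb UMI in 6.84% and 7.09% of cells.

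Stmn2 (chromosome 3, 8509360 to 8561606, plus strand, GRCm38) encodes stathmin-2, a microtubule regulator best known from neurons. Its level was 186 CPM in the control and 426 CPM in the metformin dermal sheath-like cells, against 30.4 and 42.9 CPM in the other fibroblasts. It had a UMI in 34.4% and 54.5% of the cells, against 4.66% and 6.19% of the others, and after thinning in 14.3% and 35.03% against 2.98% and 3.87%. Stmn2 was not particular to these cells, since 19.8% and 23.1% of the set D fibroblasts (Stc1, Grem1, Igfbp2 and Mme) also had a UMI.

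The wider dermal sheath list of 12 genes was mostly higher in these cells. In this comparison a gene was counted as higher or lower where its ratio over the other gated fibroblasts reached 2 or fell to 0.5, with at least 20 UMIs and an interval clear of 1. In control, 7 of 11 measured list genes were higher and 2 lower with a median log2 ratio of 1.93, where 7.79% of 12342 genes tested were higher and 6.89% lower. In metformin, 8 of 12 were higher and 2 lower with a median of 1.91, where 5.05% of 12446 genes were higher and 10.3% lower. The median over all genes tested was 0 in control and -0.13 in metformin. These shares and medians over all genes apply to every list that is set against the other gated fibroblasts below. The list was put together with results of these data known, so its counts are a description.

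Among its members Itga8, an integrin chain of follicle mesenchyme, stood at 54.6 against 8.19 CPM in control and 35.3 against 9.27 CPM in metformin. Tmem119 was at 233 against 61.4 CPM and 214 against 53.3 CPM. Tnn, the matrix protein tenascin-N, was at 174 against 16.1 CPM in control and at only 38.4 against 2.86 CPM in metformin. Abi3bp, a matrix protein counted on the list, was lower in these cells than in the others in both libraries, at 89.4 against 402 CPM and 60.6 against 201 CPM. Edn3, a ligand of Ednrb, had 3 and 7 UMIs in the dermal sheath-like cells and was at 57.2 and 264 CPM in set G. In control set G 1 UMI was worth 14.3 CPM, so the control level of Edn3 there rested on few UMIs. In metformin the ligand gene was thus higher in set G and the receptor higher in the dermal sheath-like cells, though set G had some Ednrb too. Ednra, the other endothelin receptor, was at 57.1 against 16.7 CPM and 93.2 against 27.1 CPM.

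Contractile genes set these cells apart from the other fibroblasts. Acta2 was at 904 CPM in the control and 3113 CPM in the metformin dermal sheath-like cells, against 128 and 184 CPM in the other fibroblasts. It had a UMI in 57.8% and 79.2% of the cells, against 4.95% and 8.55% of the others and 2.09% and 4.88% of keratinocyte barcodes, and after thinning in 49.2% and 68.0% against 3.62% and 4.97%. Set G and set C cells had at most 27.6 CPM of Acta2 in either library. Tagln (transgelin) was at 1103 against 209 CPM in control and 1676 against 171 CPM in metformin. Actg2, the enteric smooth muscle actin, was at 114 against 8.62 CPM and 291 against 16.8 CPM, and had no UMI in the set G or set C cells of either library. Myl9, the regulatory light chain of smooth muscle myosin, was at 412 against 63.6 CPM and 823 against 107 CPM. The tropomyosin genes Tpm1 and Tpm2 were at 596 and 628 CPM in control and at 1318 and 924 CPM in metformin, between 3.14 and 6.62 times the level in the other fibroblasts.

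Of the 18 listed contractile genes, 8 were higher and 1 lower in control, with a median log2 ratio of 1.02. In metformin 14 were higher and 0 lower, with a median of 1.73. Some genes of differentiated smooth muscle were missing from most cells: Myh11, its myosin heavy chain, had 0 UMIs in the 64 control cells and was found in 10 of 341 metformin cells. Des (desmin) was found in 1 control and 7 metformin cells, and Rgs5, a pericyte gene, in 0 control cells (which allows 4.69% of cells) and 4 metformin cells. The whole list stood at 4933 CPM in the control and 9832 CPM in the metformin dermal sheath-like cells, at 1553 and 1483 CPM in the other fibroblasts, and at 34570 and 31520 CPM in mural barcodes. The median cell had 4249 and 6437 CPM, against 900.5 and 799 CPM in the other fibroblasts. Contractile RNA was thus between the level of the other fibroblasts and that of mural cells in both libraries. With the 3 control and 32 metformin cells removed that also carried RNA of other cell types, the list stood at 5308 and 10240 CPM, so the result was as large without them.

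The start regions of contractile genes were searched for the CArG box, the site to which serum response factor binds in many smooth muscle genes, on both strands and from 250 bases before to 50 bases after the gene start. It was found in 2 of 16 start regions of the 15 listed contractile genes that the table held, and in 535 of 32851 start regions of all genes (1.63%). The windows of 60 bases around both matches are shown because these genes, Myl9 and Cnn2 (calponin 2), were higher in the dermal sheath-like cells in both libraries. The capitals mark the CArG box, and the sequences are from RefSeq on GRCm38.p6. The Myl9 window lies at chr2:156775278-156775337 and the Cnn2 window at chr10:79988519-79988578, both on the plus strand, and the boxes begin 161 and 56 bases before the gene start.
Myl9: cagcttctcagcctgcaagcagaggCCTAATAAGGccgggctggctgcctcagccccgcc
Cnn2: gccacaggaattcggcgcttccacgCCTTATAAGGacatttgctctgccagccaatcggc
A match is a description of the sequence, and binding was not measured. Cnn2 stood at 124 against 50.6 CPM in control and 177 against 49.2 CPM in metformin.

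**Figure D3:**
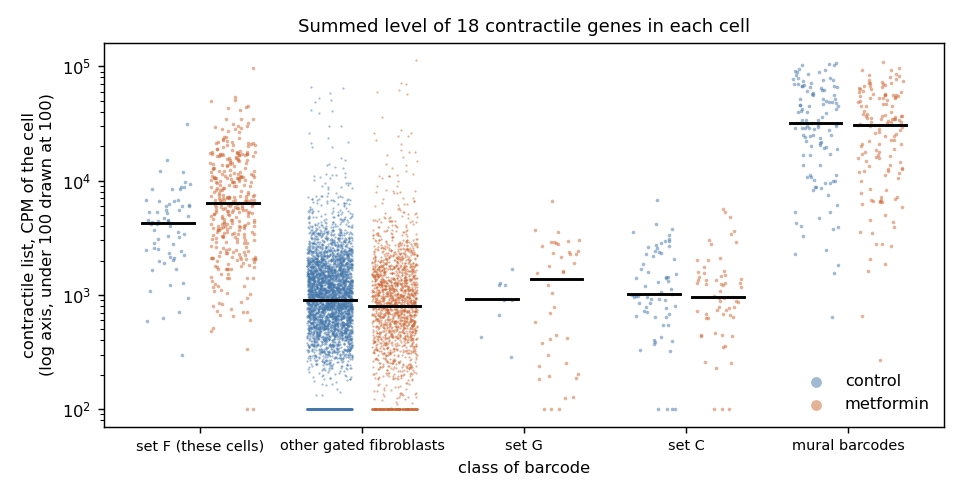
Summed CPM of the 18 contractile genes in each single cell (points) on a log axis, by class and library, with values under 100 drawn at 100 and black bars at the median cell. The set F cells, with medians of 4249 and 6437 CPM, lie above the other gated fibroblasts, set G and set C and below the mural barcodes.

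Across all genes, 235 of 11894 (1.98%) were at least 2-fold higher in the dermal sheath-like cells than in the other gated fibroblasts in both libraries, and 439 (3.69%) at least 2-fold lower in both. In all, 32 genes (0.269%) were past the fold in opposite directions. The 15 genes with the highest ratios, ranked by the library in which the ratio was nearer to 1, were Ednrb, Acta2, Actg2, Myl9, Fbn2, Tnn, Cd200, Nid2, Tenm3, Ripor2, Sox11, Cspg4, Nav2, Fam189a2 and Nexn. Since the same cells were sorted by 4 of their genes, these ratios describe the class and test nothing.

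These genes fall into groups by what they encode. Of matrix proteins, Fbn2, a fibrillin, was at 154 against 5.89 CPM in control and 226 against 17.1 CPM in metformin. Nid2, a nidogen of the basement membrane, was at 74.5 against 8.62 CPM and 151 against 18.04 CPM. Of membrane proteins, Cd200, an immunoglobulin-family surface protein, was at 241 against 21.3 CPM and 387 against 38.4 CPM. Tenm3, a teneurin with roles in cell recognition, was at 57.1 against 7.04 CPM and 99.3 against 12.0 CPM. Cspg4, a proteoglycan also used as a pericyte marker, was at 91.9 against 10.9 CPM and 84.0 against 12.0 CPM. Nexn, an actin-binding protein of muscle, was at 42.2 against 6.75 CPM and 58.3 against 6.21 CPM. Cd200, Nid2 and Tenm3 were at nearly the same multiple of the other fibroblasts in both libraries, between 8.12 and 11.3 times, whereas Fbn2 was at 26.1 and 13.2 times.

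Of 33 transcription factors listed for mesenchyme, 8 were higher and 5 lower in control, with a median of 0.00, and of 32 in metformin 7 were higher and 10 lower, with a median of -0.35. The shares over all genes were 7.79% higher and 6.89% lower in control, and 5.05% higher and 10.3% lower in metformin. Sox11, a factor of immature mesenchymal and neural cells, was at 67.1 against 7.33 CPM in control and 67.1 against 10.3 CPM in metformin. Tbx18, a T-box factor known from the mesenchyme of the follicle, was at 57.1 against 9.77 CPM and 55.2 against 10.1 CPM. Foxd1 was at 59.6 against 10.3 CPM and 43.3 against 9.56 CPM. Sox18, an endothelial factor also expressed in follicle mesenchyme, was at 132 against 5.32 CPM and 134 against 29.9 CPM, in cells whose 8 endothelial marker genes had 0 UMIs in control and 16 UMIs in metformin. Between the agents, the ratios of these 4 genes in the dermal sheath-like cells were between 0.727 and 1.02, with intervals that held 1, though Sox11 had a log2 ratio of 0.98 in cells chosen after thinning.

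Collagen genes and other matrix genes divided. Of 22 collagen genes outside the rule, 7 were higher and 1 lower in control (median 0.19), and 12 were higher and 2 lower in metformin (median 1.08). Col6a1, a chain of collagen VI, was at 1935 against 661 CPM and 1562 against 612 CPM. Col7a1, the anchoring fibril collagen, was at 176 against 55.7 CPM and 149 against 57.4 CPM. The fibril-associated Col12a1 was at 246 against 142 CPM in control and at 662 against 77.6 CPM in metformin. Of matrix glycoproteins, 8 of 39 were higher and 22 lower in control (median -1.24), and 10 of 40 were higher and 14 lower in metformin (median -0.43). Postn (periostin) was at 1078 against 287 CPM and 1596 against 556 CPM. Tgfbi was at 9.94 against 504 CPM and 13.4 against 263 CPM, and Tnxb (tenascin-X) at 47.2 against 863 CPM and 28.0 against 466 CPM. The collagens of the sheath cells were thus accompanied by a different set of glycoproteins from that of the other fibroblasts.

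Cartilage and tendon genes were few beyond those of the rule. Col2a1, the main collagen of cartilage, had 0 UMIs in the dermal sheath-like cells of both libraries, as did Col9a1, Matn1, Matn3, Chad, Comp, Cnmd and Ucma. Sox9, the main transcription factor of cartilage, was at 7.45 against 13.8 CPM in control and 11.5 against 12.3 CPM in metformin. Higher list genes were Hapln3, a link protein that binds hyaluronan and aggrecan, at 29.8 against 1.58 CPM and 45.6 against 2.27 CPM, and Col27a1, at 39.7 against 5.96 CPM and 44.1 against 9.27 CPM. Matn4 (matrilin-4) was at 54.6 against 23.9 CPM and 114 against 11.4 CPM. Of the cartilage list, 3 of 5 measured genes were higher in control and 4 of 6 in metformin, with medians of 1.19 and 1.86. Of the tendon list, 1 of 8 was higher in each library, with 4 and 3 lower and medians of -1.16 and -0.92. Scx, the defining transcription factor of tendon, had 1 control and 12 metformin UMIs, and Thbs4 (thrombospondin-4) was the list gene above the fold, at 96.9 against 27.6 CPM and 161 against 42.0 CPM.

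Genes of ordinary dermal fibroblasts were lower. The 8 genes with the lowest ratios were Clec3b, Gpx3, C3, Sod3, Mmp3, Ifi205, C1qtnf3 and Gdf15. Clec3b (tetranectin) was at 4.97 against 769 CPM in control and 11.1 against 485 CPM in metformin. Gpx3, a secreted glutathione peroxidase, was at 2.48 against 492 CPM and 6.90 against 392 CPM. Complement C3 had 0 UMIs in the control cells against 380 CPM, which allows at most 0.0196 of the level in the other fibroblasts, and was at 4.60 against 216 CPM in metformin. Of 17 genes of a general fibroblast list, 1 was higher and 12 lower in control and 0 higher and 10 lower in metformin, with medians of -1.54 and -1.36. Pdgfra, a receptor that marks dermal fibroblasts and is on no set of the rule, was at 236 against 305 CPM and 252 against 253 CPM. The cells were thus low in many genes of other dermal fibroblasts and had Pdgfra RNA in 68.8% of control and 74.8% of metformin cells. After thinning these shares were 26.98% and 32.3%, against 34.9% and 35.4% of the other fibroblasts.

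Immune signals were also low. Of 18 chemokine and immune signal genes measured in control, 0 were higher and 13 lower, with a median of -2.51, and of 19 in metformin 0 were higher and 14 lower, with a median of -2.40. Ccl19 was at 17.4 against 286 CPM and 11.1 against 194 CPM, and Csf1 at 14.9 against 144 CPM and 13.0 against 68.8 CPM. Of interferon and antigen presentation genes, 5 of 18 were lower in control and 7 of 17 in metformin, with 0 higher in each and medians of -0.39 and -0.97. B2m, the light chain of class I molecules, was at 656 against 2038 CPM and 395 against 1024 CPM.

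Growth factor and signalling genes included several secreted inhibitors. Igfbp4, which binds insulin-like growth factors, was at 1041 against 112 CPM in control and 2085 against 358 CPM in metformin. Its relative Igfbp6 was at 59.6 against 960 CPM and 37.97 against 609 CPM. In all, 5 growth factor genes of 28 were higher and 6 lower in control, and 8 were higher and 9 lower in metformin, with medians of -0.37 and -0.41. Dkk1, an inhibitor of Wnt signalling, was at 14.9 CPM in control, where the other fibroblasts had 0 UMIs, and at 26.9 against 0.394 CPM in metformin. Nog (noggin), an inhibitor of bone morphogenetic proteins, was at 39.7 against 13.9 CPM and 16.1 against 3.55 CPM, whereas the inhibitors Fst and Nbl1 were at 0.0867 to 0.169 times the level in the other fibroblasts. Gli1, a target of hedgehog signalling, was at 64.6 against 16.2 CPM and 62.1 against 30.4 CPM.

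By list, 4 of 30 Wnt genes were higher and 3 lower in control (median -0.12), and 3 of 33 were higher and 17 lower in metformin (median -1.05). Over all genes tested, 7.79% were higher and 6.89% lower in control, and 5.05% were higher and 10.3% lower in metformin. Several counts in this paragraph were near those shares. Of 24 genes of bone morphogenetic protein signalling, 1 was higher and 5 lower in control, and 2 were higher and 12 lower in metformin (medians -0.59 and -0.99). Of 20 genes of transforming growth factor beta signalling, 1 was higher in each library, with 10 and 7 lower (medians -0.98 and -0.58). Of 11 hedgehog genes, 4 were higher and 3 lower in control, and 1 was higher and 4 lower in metformin (medians 0.83 and -0.58). Guidance and neural genes had 7 of 23 higher and 4 lower in control, and 5 of 23 higher and 4 lower in metformin (medians 0.21 and 0.28). Endothelin genes had 2 of 5 higher and 1 lower in control, and 2 of 6 higher and 1 lower in metformin (medians 0.81 and -0.71). The dermal papilla list stood higher than the other fibroblasts in control, with 10 of 19 higher, 3 lower and a median of 1.5, but not in metformin, with 4 of 22 higher, 10 lower and a median of -0.53. Igfbp3 and Alx4 of that list were above the fold in both libraries, at 266 against 94.2 CPM and 228 against 56.8 CPM for Igfbp3 and at 27.3 against 1.65 CPM and 32.2 against 6.80 CPM for Alx4.

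The dermal papilla cells of set G, which lie next to the sheath in the follicle, differed in several of these genes. The 42 metformin set G cells are compared here, because the 10 control cells had so few UMIs that 1 UMI was worth 14.3 CPM. Sostdc1, an inhibitor secreted by follicle mesenchyme, was at 29.9 CPM in the dermal sheath-like cells and 1010 CPM in set G. Edn3 was at 2.69 against 264 CPM. In the other direction stood Acta2, at 3113 against 27.6 CPM, Ednrb, at 585 against 41.4 CPM, and Igfbp3, at 228 against 33.5 CPM. Tnmd, at 667 CPM against 0 UMIs, is a set F gene, so the rule itself favoured this difference. Alx4, at 32.2 against 55.2 CPM, and Gli1, at 62.1 against 65.1 CPM, were found in both classes.

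Of the remaining matrix and secretion lists, proteases and proteoglycans had more genes lower than higher in both libraries. The shares over all genes were 7.79% higher and 6.89% lower in control, and 5.05% higher and 10.3% lower in metformin. Proteoglycans had 3 of 17 higher and 7 lower in control and 3 of 18 higher and 5 lower in metformin (medians -0.44 and 0.02). Collagen processing genes had 2 of 23 higher and 4 lower in control and 5 of 22 higher and 4 lower in metformin (medians -0.44 and 0.55). Proteases had 2 of 20 higher and 9 lower, and 3 of 20 higher and 8 lower (medians -0.85 and -0.43). Adamts18, a secreted metalloprotease, was among the higher ones, at 44.7 against 1.65 CPM and 127 against 16.3 CPM. Secretory pathway genes had 1 of 22 higher and 1 lower in control and 1 higher and 0 lower in metformin (medians -0.20 and 0.42), and Ssr2 of the translocon was the higher one in both, at 375 against 127 CPM and 514 against 213 CPM. None of 32 complex I genes was past the fold in either library (medians 0.36 and 0.13), and 1 of 18 glycolysis genes was higher and 1 lower in control and 0 higher and 1 lower in metformin (medians 0.29 and 0.03). Immediate early genes had 0 higher and 2 of 18 lower in control and 0 past the fold in metformin (medians -0.22 and -0.39).

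Proliferation genes differed from the other fibroblasts in control but not in metformin. In control, 19 of 20 cell cycle genes were higher in the dermal sheath-like cells than in the other fibroblasts and 0 lower, with a median log2 ratio of 3.91. In metformin, 0 of 20 were past the fold in either direction, with a median of -0.19. Mki67 was at 139 CPM in 8 of the 64 control cells against 3.66 CPM in the other control fibroblasts, and at 64.8 against 74.4 CPM in metformin. Top2a was at 233 against 7.18 CPM and 117 against 71.2 CPM. After thinning, at least 3 cell cycle genes were found in 14 of 63 control cells (22.2%, interval 12.7% to 34.5%) and 60 of 334 metformin cells (17.96%, interval 14% to 22.5%). Among the other fibroblasts the share was 0.931% in control and 13.5% in metformin. The dermal sheath-like cells thus had similar shares in both libraries, within their counting intervals, whereas the shares of the other fibroblasts were far apart. Without the cells that carried RNA of other types the shares were 21.7% and 15.9%.

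**Figure D4:**
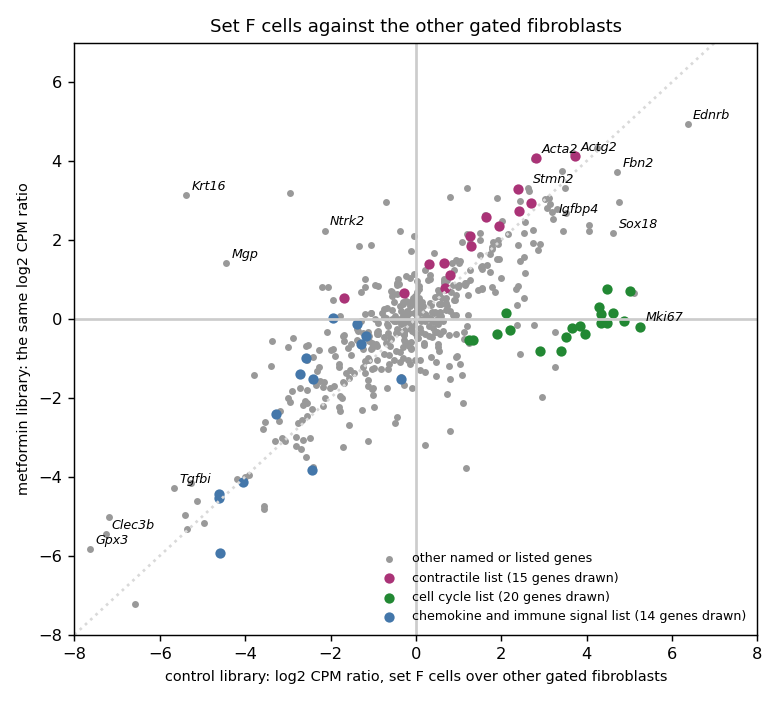
Log2 ratio of CPM in set F cells over the other gated fibroblasts for the named and listed genes with a UMI in the set F cells of both libraries, control on the horizontal and metformin on the vertical axis, with the dotted line where both are equal. Most contractile genes (purple) lie above 0 in both libraries, with a list median of 1.02 in control and 1.73 in metformin. Most chemokine genes (blue) lie at low ratios in both, with list medians of -2.51 and -2.40. The 20 cell cycle genes (green) lie to the right, high in control and near 0 in metformin.

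Between the agents, 219 of 9325 genes (2.35%) were at least 2-fold higher in the metformin than in the control dermal sheath-like cells, and 422 (4.53%) at least 2-fold lower, with a median log2 ratio of -0.03 over all genes. Part of the set F genes' own difference and of the depth goes with this comparison, since 45.5% of metformin but 17.2% of control cells had all 4 set F genes. The values within equal numbers of set F genes are therefore given where a result turns on them.

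Ednrb was 4.91 times higher in the metformin cells (interval 3.68 to 6.68), at 585 against 119 CPM. In cells with 2, 3 and 4 set F genes Ednrb was at 26.1, 39.8 and 341 CPM in control and at 43.6, 268 and 878 CPM in metformin. It was thus highest with 4 genes in both libraries, and higher in metformin with 3 and with 4 genes. With 2 genes it rested on 3 UMIs in 1 control cell and 10 UMIs in 6 metformin cells, too few to tell the libraries apart. The other fibroblasts of the metformin library also had more Ednrb, at 19.1 against 1.44 CPM. Stmn2 was 2.29 times higher (interval 1.81 to 2.93), and 95.5, 131 and 368 CPM in control stood against 432, 381 and 454 CPM in metformin for 2, 3 and 4 genes. Kank4, a regulator of the actin cytoskeleton on the dermal sheath list, was at 7.45 CPM in 3 control cells and 64.1 CPM in 103 metformin cells, against 1.01 and 1.87 CPM in the other fibroblasts. After thinning, 3.17% of control and 9.28% of metformin dermal sheath-like cells kept a Kank4 UMI.

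The contractile list was higher in the metformin cells. Of 17 measured genes, 6 were at least 2-fold higher, 0 were lower and 17 had a ratio over 1, with a median log2 ratio of 0.93. Acta2 was 3.44 times higher (interval 3.10 to 3.83), Actg2 2.55 times (interval 1.89 to 3.51) and Tpm1 2.21 times (interval 1.94 to 2.53). Myl9 was 1.99 times higher, Mylk, the myosin light chain kinase, 1.91 times, Tagln 1.52 times (a log2 ratio of 0.60, or 0.11 in cells chosen after thinning), Tpm2 1.47 times and Cald1 1.33 times. The other 3 genes past the fold, Myh11, Des and Synpo2, were found in 10, 7 and 15 metformin cells, and Myh11 and Synpo2, with 0 control UMIs, were set against 3 UMIs, so that Myh11 was at least 6.38-fold higher and Synpo2 at least 2.62-fold. Most of their UMIs lay in cells with RNA of other types, chosen in part by Myh11 and Des themselves, without which the 3 genes had under 20 UMIs and were not compared between the agents, and the metformin cells were below the other fibroblasts, at a log2 ratio of -3.07 for Myh11 and -0.44 for Synpo2. In the other gated fibroblasts the list stood at 1553 CPM (control) and 1483 CPM (metformin), so the difference in the list's summed level was not seen there. Single genes did differ there: by the levels given above, Acta2, Actg2 and Myl9 were higher in the other metformin fibroblasts too, and Tagln was lower. The contractile difference was thus not confined to the dermal sheath-like cells for every gene. Within 2, 3 and 4 set F genes, the list was at 5496, 3464 and 6674 CPM in control and at 4036, 6933 and 12650 CPM in metformin, so it was lower in metformin among cells with exactly 2 genes. Acta2 itself stood there at 1294 and 650 CPM (control, then metformin), Tagln at 1381 and 537 CPM and Actg2 at 104 and 56.7 CPM. Among cells with 4 genes Acta2 was at 1383 and 4395 CPM, Tagln at 1599 and 2253 CPM and Actg2 at 287 and 403 CPM.

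Other genes higher in the metformin cells were found in many cells. Ntrk2, the receptor of brain-derived neurotrophic factor, was at 12.4 CPM in 3 control cells and 127 CPM in 137 metformin cells, a ratio of 10.2 with an interval of 4.32 to 31.6. Etl4 was at 32.3 and 111 CPM, and Tnnt1, a troponin of slow muscle, at 24.8 and 107 CPM, in 6 control and 93 metformin cells. Fbxl22, an F-box protein of muscle sarcomeres, was at 4.97 CPM in 1 control cell and 57.5 CPM in 69 metformin cells, and Mustn1 at 14.9 and 83.2 CPM in 4 and 80 cells. Mgp, matrix Gla protein, an inhibitor of calcification, had 2 UMIs in 2 control cells and 501 UMIs in 72 metformin cells, at 4.97 and 192 CPM. Choosing the cells after thinning left 26 control cells. The log2 ratio was then 0.88 in place of 5.27 for Mgp, 0.93 in place of 2.11 for Tnnt1, 0.91 in place of 3.53 for Fbxl22 and 0.52 in place of 2.48 for Mustn1. It was 2.02 for Acta2, 3.71 for Ednrb, 2.81 for Stmn2 and 2.62 for Ntrk2. When the control cells of the rule as used were thinned, Ednrb kept a UMI in 4 of 63, Stmn2 in 9 and Acta2 in 31. Ntrk2 and Mgp kept a UMI in 0 of them, and Ntrk2 kept one in 58 of 334 metformin cells. The thinned ratios of Ednrb, Ntrk2 and Mgp can therefore rest on very few control UMIs, and their order is not read as a result.

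Some genes of the same ranking rested on few cells and are no description of the class. Of 380 Krt16 UMIs in the metformin cells, 222 were in 1 cell, as were 175 of 178 Krt6a UMIs and 105 of 268 BC100530 UMIs. Sprr1b was found in 10 cells, with 81 of 194 UMIs in 1, and Krt17 in 44 cells, with 455 of 1057 UMIs in 1. Cxcl14, a chemokine, had 68 of 198 UMIs in 1 cell and was found in 50. Among genes ranked lower in metformin, H2-Aa had 52 of its 54 control UMIs in 1 cell.

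UMIs of keratinocyte genes were found in most dermal sheath-like cells, namely 50 of 64 (control) and 283 of 341 (metformin), and those of smooth muscle and pericyte genes in 36 and 187. The summed level of 10 keratinocyte genes was 4749 CPM (control) and 5030 CPM (metformin), with 94.3% and 34.9% of the UMIs in 3 cells, and the median cell had 316 and 297 CPM. The leukocyte list was at 507 and 282 CPM, above the 174 and 61.8 CPM of the other fibroblasts, with 94.1% and 91.8% of its UMIs in 3 cells. The smooth muscle and pericyte list was at 161 and 260 CPM, against 102 and 109 CPM in the other fibroblasts, and Rgs5, Myh11, Higd1b, Kcnj8 and Abcc9 had 0 UMIs in control. Endothelial genes were at 0 and 6.14 CPM, hair shaft genes at 0 and 74.4 CPM, glial and melanocyte genes at 7.45 and 25.3 CPM, skeletal muscle genes at 0 and 9.97 CPM, adipocyte genes at 0 and 0.767 CPM and erythroid genes at 0 and 2.30 CPM. Doublets were called in 3 of 64 control and 23 of 341 metformin cells, 402 of 11554 and 625 of 11738 kept barcodes being called in all. The defining markers of endothelium, fat and red blood cells were thus at or near 0.

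Of genes lower in the metformin cells, the largest groups were immediate early and interferon genes. Of 18 immediate early genes, 11 were at least 2-fold lower and 18 had a ratio under 1, with a median log2 ratio of -1.05. Egr1 stood at 1130 CPM in the control and 540 CPM in the metformin cells, Junb at 1704 and 815 CPM, and Fosl1 at 52.2 and 10.7 CPM. Of 14 interferon genes, 8 were lower and 14 under 1, with a median of -1.09. Isg15 was at 229 and 47.6 CPM, Ifit1 at 49.7 and 7.67 CPM and Irf1 at 219 and 63.7 CPM. The other gated fibroblasts differed in the same direction, with Egr1 at 1899 and 1009 CPM, Junb at 1651 and 1148 CPM, Isg15 at 180 and 93.4 CPM and Irf1 at 243 and 102 CPM. These differences were thus found in both kinds of fibroblast of the same pair of libraries. In cells chosen after thinning the list medians were -1.11 for immediate early and -0.83 for interferon genes, but the log2 ratio of Isg15 itself was 0.36 in place of -2.26.

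The single genes with the lowest ratios were of mixed roles. Errfi1, a feedback inhibitor of the epidermal growth factor receptor, was at 251 and 51.4 CPM, a ratio of 0.205 with an interval of 0.157 to 0.268, and at 826 and 208 CPM in the other fibroblasts. Cyp26b1, which degrades retinoic acid, was at 288 and 59.8 CPM, and at 1868 and 588 CPM in the others. Cilp, a matrix protein of the tendon list, was at 296 and 64.8 CPM, and at 878 and 418 CPM in the others. Tnn was at 174 and 38.4 CPM, and at 16.1 and 2.86 CPM in the others. The nonagouti gene (symbol a), which encodes the agouti signal to melanocytes, was at 181 and 38.7 CPM in the dermal sheath-like cells and at 78.7 and 43.8 CPM in the others, but its log2 ratio of -2.23 between the agents was 0.00 in cells chosen after thinning. Nrp2, a receptor of semaphorins, was at 147 and 41.0 CPM, while the others stood at 85.3 and 94.1 CPM, and its log2 ratio of -1.84 was -0.60 after thinning. Ctsc, Sparcl1, Igfbp5, Icam1, Mxd3 and Dnajb1 complete the 15 lowest, at 0.256 to 0.328 times the control level. Of the 15, Nrp2 and Mxd3 were the ones that were not lower in the other metformin fibroblasts too.

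**Figure D5:**
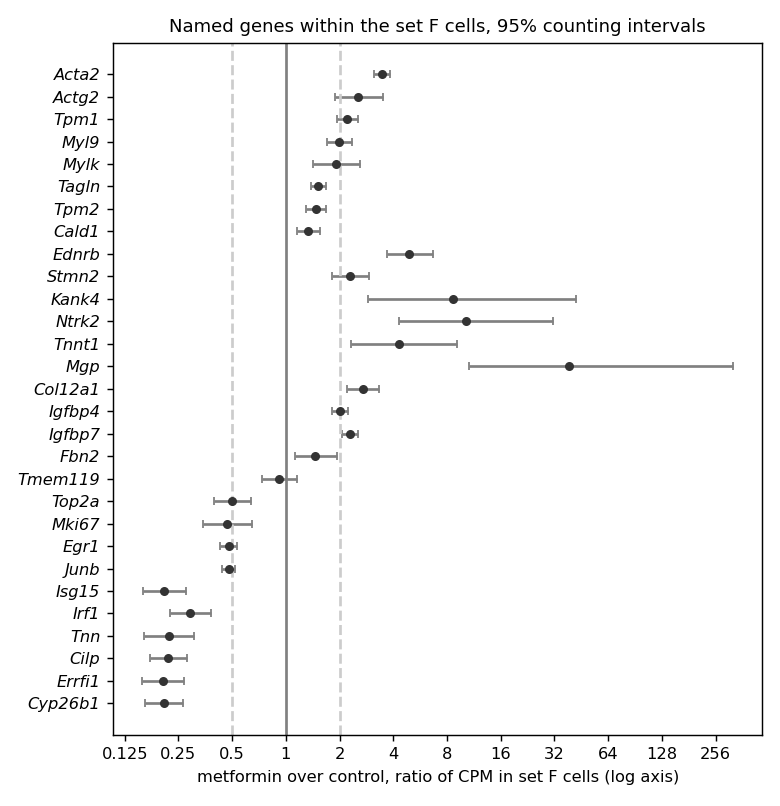
Ratio of metformin to control CPM within the set F cells (points, log axis) for named genes, with exact 95% counting intervals (lines). The solid line marks equal levels and the dashed lines 2-fold either way; the 8 contractile genes at the top lie to the right of 1 and Isg15, Irf1, Tnn, Cilp, Errfi1 and Cyp26b1 at the bottom lie left of 0.5.

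Matrix genes differed less between the agents. Of 20 collagen genes, 4 were higher and 1 lower, with a median log2 ratio of 0.14. Col12a1 was 2.69 times higher (interval 2.20 to 3.33), at 662 against 246 CPM, whereas in the other fibroblasts it was at 77.6 against 142 CPM. With 2, 3 and 4 set F genes it was at 191, 261 and 278 CPM in control and at 183, 439 and 883 CPM in metformin, so it was not higher in metformin among cells with 2 genes. Col14a1 was at 209 against 84.5 CPM. Of 39 matrix glycoproteins 3 were higher and 4 lower (median 0.18), of 16 proteoglycans 1 and 2 (median 0.49, or -0.79 in cells chosen after thinning), of 21 collagen processing genes 2 and 1 (median 0.33), of 18 proteases 2 and 3 (median 0.16) and of 22 secretory genes 1 and 0 (median 0.19). Pcolce, the enhancer of procollagen C-proteinase, was at 710 against 301 CPM, Sparc, a collagen-binding protein, at 9151 against 4612 CPM, and Lum (lumican) at 225 against 492 CPM. Igfbp4 was 2.003 times higher.

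Apart from the dermal sheath list, the other lists had few genes past the fold between the agents. Of all genes tested, 2.35% were higher and 4.53% lower in metformin. The dermal sheath list had 4 of 11 higher, namely Ednrb, Stmn2, Kank4 and Mgp, and 1 lower, Tnn, with 6 genes under a ratio of 1 and a median of -0.02, or 0.88 in cells chosen after thinning. The dermal papilla list had 1 of 15 higher and 2 lower (median -0.49), the tendon list 0 of 7 higher and 2 lower (median -0.43, or -1.14 after thinning) and the cartilage list 1 of 4 higher and 0 lower (median 0.62, or -0.31 after thinning). Wnt genes had 0 of 25 higher and 3 lower (median -0.44), transforming growth factor beta genes 0 of 19 and 4 (median -0.31), bone morphogenetic protein genes 2 of 18 and 1 (median -0.25, or -0.59 after thinning) and hedgehog genes 0 of 10 and 1 (median -0.16). Growth factors had 3 of 24 higher and 2 lower (median -0.21, or -1.12 after thinning), endothelin genes 1 of 3 and 0 (median 0.83, or 0.36 after thinning), guidance genes 3 of 20 and 3 (median -0.07), transcription factors 1 of 27 and 1 (median -0.09, or -0.59 after thinning), general fibroblast genes 1 of 17 and 3 (median -0.36) and chemokines 1 of 11 and 2 (median -0.17). Cell cycle genes had 0 of 20 higher and 4 lower (median -0.43, or -0.02 in cells chosen after thinning), and glycolysis genes 0 of 16 and 2 (median -0.27). Of complex I, the respiratory complex on which metformin is known to act, 0 of 32 genes were past the fold, 24 had a ratio over 1 and the median was 0.27.

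Within the 341 metformin cells, some of these genes were found in the same cells. Across cells, Spearman's rho of CPM per cell was 0.72 for Acta2 and Tagln, 0.59 for Ednrb and Col12a1, 0.57 for Ednrb and Acta2 and 0.56 for Ednrb and Col11a1. It was 0.40 for Stmn2 and Mgp. These are descriptions over cells of 1 library that share its depth and its dropout, and cells are not replicates. In the 64 control cells rho was 0.47 for Acta2 and Tagln, 0.07 for Ednrb and Col12a1 and 0.30 for Ednrb and Acta2. It was 0.11 for Ednrb and Col11a1, a gene of the rule, and 0.02 for Stmn2 and Mgp. These named pairs were each lower than in metformin, but other pairs were higher in control. For Stmn2 and Sox18 rho was 0.53 in control and 0.23 in metformin, and for Igfbp4 and Fbn2 it was 0.47 and 0.04.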

How the data were processed

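Single-cell suspensions of skin were sequenced by droplet RNA sequencing. The authors deposited UMI counts per gene and barcode for each library, which per the file headers came from Cell Ranger 4.0.0, and used GRCm38 according to the submitters' processing notes. The deposited counts were not normalised, and the matrices list 31053 genes and 71345558 UMIs in control and 92341365 UMIs in metformin. The extraction text of the labels names another species, whereas the gene identifiers are those of mouse. No author annotation of cell types was used, and the Shi-Bi-Man library was not analysed here.

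From these counts, cells were filtered, gated and chosen as stated at the start of the report. The members and gene lists were chosen with earlier results of these data known. For each class in each library, counts were added up and divided by the class's total UMIs to give CPM. Ratios have exact conditional binomial intervals and shares have Clopper-Pearson intervals, all at 95%. UMIs of free RNA and PCR bias are not covered. A gene was called where it had at least 20 UMIs in the classes compared, a ratio of at least 2 or at most 0.5 and an interval clear of 1, with the genes of the rule left out. A count of 0 was set to 3. Keratinocyte, leukocyte and mural barcodes were named from marker counts. Scrublet (scanpy 1.11.5) called doublets within each library, with 8% expected. Python 3.11.15, numpy 2.4.6, scipy 1.17.1, pandas 2.3.3 and matplotlib 3.10.9 were used, and the calls and intervals were tested on simulated data. Of 26 gene lists, 1 symbol, Snorc, did not match a gene. Promoter windows are from RefSeq on GRCm38.p6 and gene coordinates from GENCODE M21 on GRCm38.

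Named genes were those of the rule, the 6 markers, the 15 highest and 8 lowest ratios over the other fibroblasts (at least 50 UMIs per library and 50 CPM), the 15 highest and 15 lowest metformin over control ratios (at least 100 UMIs and 50 CPM), 2 to 4 genes of each list with the largest ratios, and every gene of the dermal sheath, contractile, tendon and cartilage lists. The rankings left out genes of mitochondria, ribosomal proteins and haemoglobin. Pdgfra, Postn, Sparc, Lum, Junb, Fosl1, Sox18, Igfbp3, Igfbp7, Etl4 and the levels in cells with 2, 3 and 4 set F genes were described after their values were seen where the rule did not name them. Alternatives were a filter of 300 to 3000 genes and at most 8% mitochondrial UMIs, at least 3 set F genes, ties allowed, doublets removed, thinning to 1500 UMIs, means over cells, other count minimums and division by the median ratio. The removal of cells with RNA of other types (at least 20 keratinocyte or leukocyte UMIs or 10 mural UMIs) was added after seeing the data.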

Additional observations from a re-analysis of the deposited data

Results flagged for a closer look

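A few genes lay past the 2-fold limit in opposite directions in the libraries when the dermal sheath-like cells were set against the other gated fibroblasts of their own library. With 1 library for each agent, the difference between the libraries was not tested for any of them. Ntrk2 had a log2 ratio of -2.14 in control and 2.24 in metformin, where it was found in 137 of 341 cells. Mgp had a log2 ratio of -4.45 in control, on 2 UMIs, and 1.41 in metformin, where it was found in 72 cells. For Krt16 the ratios were -5.38 and 3.13, with 222 of 380 metformin UMIs in 1 cell. For Sprr1b they were -3.27, with 0 control UMIs set to 3, and 3.97, on 10 metformin cells. For BC100530 they were -2.95 and 3.19, with 105 of 268 metformin UMIs in 1 cell. Myh11, the smooth muscle myosin heavy chain, had -1.28, with 0 control UMIs set to 3, and 1.26, on 10 metformin cells. Without the cells that carried RNA of other types, Krt16, Sprr1b, BC100530 and Myh11 were below the other fibroblasts in both libraries.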

How the results depend on the processing

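No paired analysis was possible because each agent had 1 library. The metformin share of dermal sheath-like cells exceeded the control share under all 6 alternatives. Control shares that differed from 1.51% by more than its interval were 0.965% with at least 3 set F genes, 0.796% after thinning and 4.49% with ties allowed. Metformin shares were 13.3% under the stricter cell filter, 13.2% with at least 3 set F genes and 24.3% with ties, and the difference was 12.0 points under the stricter filter and 19.8 points with ties. After thinning, genes higher and lower in both libraries numbered 116 and 137, of which 66 and 110 were among the 235 and 439. Between the agents, thinning left 42 higher and 120 lower genes, of which 10 and 30 were among the 219 and 422, and a minimum of 100 UMIs left 120 higher and 115 lower. Single genes between the agents at this depth thus depended on thinning, which left 26 control cells. That minimum put the share of calls that were higher at 51.1%, against 34.2% at 20 UMIs and 36.9% after division by the median ratio. The number of lists with a median of at most -0.5 was 2 as reported, 7 under the stricter filter, 4 with at least 3 set F genes, 9 after thinning and 5 without cells carrying other types' RNA.

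Over the other fibroblasts, BC100530 in metformin was at -0.63 without doublets, -0.01 after thinning and -1.40 without cells carrying other types' RNA. Without those cells H2-Aa was at -2.41 in control and -2.26 in metformin (-1.99 without doublets), Krt16 in metformin at -3.55 (-0.27 after thinning), Myh11 at -3.07, Sprr1b at -2.32 and Synpo2 at -0.44. Nonagouti in control was at -0.10 after thinning. Between the agents, thinning put Isg15 at 0.36, Matn4 at -0.62 and the cartilage list median at -0.31. No other named gene that was past the fold with an interval clear of 1 changed sign, but 26 ratios that were not past both did, and so did 8 list medians between the agents that lay within 0.5 of 0. Among these, thinning put the dermal sheath list at 0.88, proteoglycans at -0.79, proteases at -0.28, matrix glycoproteins at -0.08, collagens at -0.05, hedgehog genes at 0.07 and chemokines at 0.05 (1.01 under the stricter filter), and guidance genes were at 0.02 without cells carrying other types' RNA. The causes were not tested.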
